A study of Homo sapiens with 8 samples.

Results

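The Sprouty, SPRED and ETS genes described here are a set of 10 genes that RAS-ERK signalling is known to switch on and whose products, in most cases, act back on that pathway. They were chosen by gene symbol: SPRY1, SPRY2 and SPRY4 (Sprouty), SPRED1, SPRED2 and SPRED3 (SPRED), ETV4, ETV5 and ETS1 (transcription factors of the ETS family) and PHLDA1. All 10 symbols were found among the 27945 genes counted, and 9 of them were among the 12844 genes that passed the filter on low counts. Each of those 9 had at least 10 counts in every library, so that none was tested only because of the group in which it was high. SPRY1 did not pass.

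RAS activates the kinases RAF, MEK and ERK in turn, and ERK then changes transcription in the nucleus, largely through ETS factors. Sprouty proteins damp receptor signalling to RAS, and SPRED proteins bring the RAS inhibitor neurofibromin to the membrane, so their induction closes a negative feedback loop. ETV4 and ETV5 are PEA3-group ETS factors whose transcription follows ERK activity, ETS1 is a founding ETS factor that ERK phosphorylates, and PHLDA1 is a pleckstrin homology domain protein commonly used as a readout of ERK output. In fibroblasts a strong oncogenic RAS signal leads to senescence, a stable growth arrest.

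Transcription was measured by fastGRO-seq. In this run-on assay, RNA polymerases of isolated nuclei elongate their transcripts with 4-thio-UTP, so that newly made RNA can be captured and sequenced. The cells were IMR90, a widely used strain of primary fibroblasts from human embryonic lung, carrying a retroviral ER:RAS, a fusion of the estrogen receptor with H-RASG12V that 4-hydroxytamoxifen (4-OHT) activates. The 4 groups of 2 libraries were control cells and 3 senescent groups, given 100 nM 4-OHT, which carried a lentiviral shControl, shMETTL3 or shMETTL14. The methods give a harvest on day 6 of 4-OHT for the check of senescence markers and no separate day for these libraries. METTL3 is the catalytic subunit of the RNA m6A methyltransferase complex and METTL14 is its partner. No shRNA is given in the labels for control cells, and any effect of viral infection with an shRNA cannot be told apart from that of senescence where shControl is set against control. A single shRNA sequence stands behind each knockdown as far as the methods give it, so effects of the sequence and of the lost protein cannot be told apart either. The study describes its replicates as biologically independent, but no label ties a replicate to a culture of its own, and p-values here measure only the spread between libraries, which may be technical.

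The libraries held 14897360 to 20306299 counts, of which 86.2% to 92.5% lay in 21 rows of ribosomal RNA genes, leaving 1513930 to 2048475 counts on all other genes. That ribosomal share differed between groups, with 89.9% in control, 92.1% or more with shControl, 88.4% or less with shMETTL3 and 90.4% and 91.2% with shMETTL14, and its part in the results was not tested beyond the scalings given with the other settings. The fibroblast markers VIM (3356 to 4417 counts) and COL1A1 (1763 to 9746 counts) were abundant in every library. The summed counts of 3 epithelial markers were 0 to 9 and those of 3 endothelial markers 2 to 10. Of 3 leukocyte markers, CD3E was at 0 in all libraries, PTPRC had 0 to 4 counts and CD68 had 16 to 60, higher in all 3 senescent groups than in control. Of 10 fibroblast markers, 8 were lower and VIM was higher in senescent shControl than in control cells, 2 were higher and 2 lower with shMETTL3 than with shControl, and 7 were lower with shMETTL14 than with shControl, where 13.3% and 13.3%, 12.2% and 11.2%, and 9.15% and 12% of all tested genes were higher and lower. The proliferation gene MKI67 fell by 2.06 on the log2 scale and the arrest gene CDKN1A rose by 1.12 in senescent shControl cells, while CCNA2, the cyclin A gene, with 23 and 14 raw counts in control and 6 and 10 in shControl cells, did not pass (−0.82, adjusted p = 0.301). MKI67 had 25 and 53 raw counts in shControl cells, 1 and 0 after shMETTL3 and 1 and 3 after shMETTL14, and the nuclear lamina gene LMNB1 had 11 and 15, 2 and 0, and 5 and 2. CDKN1A was higher with shMETTL14 than with shControl (log2 1.01, adjusted p = 6.55e-06) and did not pass with shMETTL3 (−0.28, adjusted p = 0.169), while the arrest gene CDKN2B was higher with shMETTL3 (0.94, adjusted p = 0.000138) and did not pass with shMETTL14 (0.12, adjusted p = 0.689). The secreted factors IL1B and CXCL8 were lower than with shControl after shMETTL3 (−3.41 and −2.68) and after shMETTL14 (−2.58 and −2.23). These checks differed between the knockdown groups and shControl, and their part in the members' values was not tested. Whether the share of cells in a given state moved with the members was not tested, and in bulk libraries more cells with a transcript and more transcription per cell cannot be told apart.

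METTL3 had 80 and 78 raw counts in control, 77 and 47 in senescent shControl cells, 16 and 19 after shMETTL3, and 73 and 56 after shMETTL14. Its nascent transcript was lower by 2.04 (SE 0.31) on the log2 scale with shMETTL3 than with shControl (edgeR adjusted p = 1.79e-05). METTL14 had 57.5 raw counts on average in control, 26 with shControl, 44.5 with shMETTL3 and 16 with shMETTL14. Its change with shMETTL14 against shControl, −0.86 (SE 0.34), did not pass the threshold (adjusted p = 0.0763), although the fall against shMETTL3 did (−1.41, adjusted p = 0.00101). An shRNA acts on finished RNA, so a nascent transcript is an indirect check of a knockdown.

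Sequences upstream of 3 members are shown because their transcription differed between groups: SPRY2 and SPRY4 rose most in senescence, and PHLDA1 fell most after a knockdown. Each is the 250 bases before the start of the gene as deposited, or the part of that stretch, or of the 237-base gap between SPRY4 and SPRY4-AS1, that holds no annotated exon. They were read from GRCh37 (hg19), from the minus strand, on which all 3 genes lie. Capitals mark the letters CCGGAA or their reverse complement, a form of the letters that ETS factors bind. Other forms, such as GGAA alone, were not searched or marked.
SPRY2, chr13:80915262-80915500: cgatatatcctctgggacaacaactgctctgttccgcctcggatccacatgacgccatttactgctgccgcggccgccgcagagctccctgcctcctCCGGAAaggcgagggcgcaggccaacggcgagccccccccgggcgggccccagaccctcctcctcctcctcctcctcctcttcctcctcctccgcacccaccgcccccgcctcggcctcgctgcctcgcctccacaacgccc
SPRY4 to SPRY4-AS1, chr5:141704621-141704773: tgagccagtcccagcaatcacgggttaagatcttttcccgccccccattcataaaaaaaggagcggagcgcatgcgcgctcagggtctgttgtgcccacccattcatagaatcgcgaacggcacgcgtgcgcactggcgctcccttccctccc
PHLDA1, chr12:76425557-76425806: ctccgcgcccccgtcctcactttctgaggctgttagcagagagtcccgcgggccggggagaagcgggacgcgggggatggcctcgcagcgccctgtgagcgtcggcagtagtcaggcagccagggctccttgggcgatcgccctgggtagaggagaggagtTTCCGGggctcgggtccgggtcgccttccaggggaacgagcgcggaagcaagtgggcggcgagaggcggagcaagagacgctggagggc
CCGGAA, searched on both strands, lay in 2 of the 10 members' 250-base upstream windows, beside 13.4% of 27817 such windows over all genes. In SPRY2 it began 153 bases before the start, and in PHLDA1 89 bases before it, there on the opposite strand. TGANTCA, the letters AP-1 binds, lay in 0 of the 10 windows (6.01% of all windows), as did TGACGTCA (1.62%), the CArG box of serum response factor (1.15%) and TATAAA (10.5%). The guanine and cytosine content was 70.3% in the SPRY2 stretch and 70.4% in PHLDA1, against 59.5% between SPRY4 and SPRY4-AS1. A match is a description of the letters in the window and not a binding site.

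Levels of the members differed widely. Counts were normalized for library size and composition and divided by gene length in kb. The order depends on this division. By normalized count alone, SPRED1 exceeded SPRY2 with shControl (771 against 185) and PHLDA1 with shMETTL3 (657 against 467). Per kb, PHLDA1 stood far above the rest in every group. It had 99.9 ± 6.66 (SD, n = 2) in control, 156 ± 11.9 with shControl, 73.8 ± 0.70 with shMETTL3 and 170 ± 11.5 with shMETTL14. SPRY4 (6.25) and SPRY2 (6.07) followed in control cells with libraries that overlapped, and then SPRED1 (2.95). SPRED3 (1.77) and SPRED2 (1.71) overlapped, as did ETS1 (1.41), ETV5 (1.39) and SPRY1 (1.32), while ETV4 was lowest (0.59). In senescent shControl cells SPRY2 (36.0 per kb) stood apart from SPRY4 (20.1), and SPRY4 from SPRED1 (7.38). ETS1 (2.94), SPRED3 (2.50), SPRED2 (2.46) and ETV5 (2.44) each overlapped its neighbour in that order, and so did ETV4 (1.05) and SPRY1 (0.83) at its low end. ETS1 moved from the seventh place in control to the fourth with shMETTL14 (7.08 per kb, apart from SPRED3 at 4.81), where SPRED3 and SPRED1 (4.58) overlapped. With shMETTL3, SPRY2 (32.4) and SPRY4 (31.5) overlapped, and so did ETV5 (3.03) and SPRED3 (2.69), while SPRED1 (6.29), ETS1 (4.54) and SPRED2 (4.08) stood apart from each other.

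**Figure D1:**
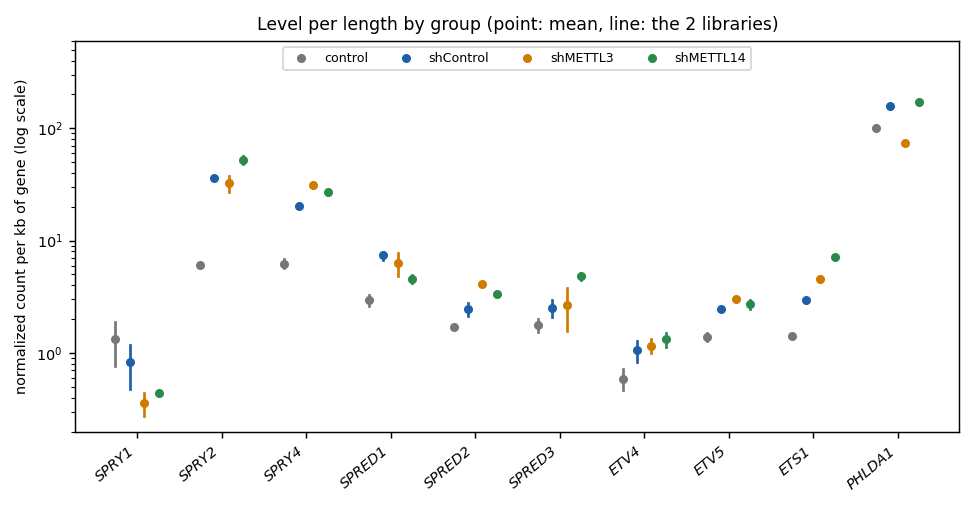
Normalized count per kb of gene (log axis) of the 10 members in the 4 groups. Points are means and lines join the 2 libraries. PHLDA1 lies between 73.8 and 170 per kb, above all other members in each group, and SPRY1 and ETV4 lie lowest.

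The first comparison asked what changed when cells became senescent. In senescent shControl cells 7 of the 9 tested members were higher than in control cells and none was lower by edgeR's quasi-likelihood test, beside 13.3% of all tested genes called higher and 13.3% called lower. At an unadjusted p below 0.05 there were also 7 higher and 0 lower, and DESeq2 called 7 higher and 0 lower. The median log2 fold change was 0.82 over the 9 members and −0.03 over all genes tested. The Sprouty genes SPRY2 and SPRY4 rose most, then SPRED1 and ETS1.

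SPRY2, a Sprouty that binds CBL and GRB2, had normalized counts of 32.8 and 29.6 in control and 193 and 177 with shControl. The shControl libraries lay far above both control libraries, a 5.91-fold rise (log2 2.56, SE 0.21, adjusted p = 3.31e-10). SPRY4, a related Sprouty, had 100.1 and 82.7 in control and 304 and 285 with shControl, a 3.22-fold rise (log2 1.69, SE 0.16, adjusted p = 3.71e-09). SPRY1 had only 2 to 15 raw counts per library, with 6 and 15 in control and 7 and 3 with shControl, and those ranges overlapped. A fit with no filter gave SPRY1 a log2 fold change of −0.64 (adjusted p = 0.718), so a change was not detectable at this depth. Against control the same fit gave −1.83 with shMETTL3 (adjusted p = 0.0863) and −1.52 with shMETTL14 (0.163). Neither passed, and both were opposite in sign to most tested members.

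SPRED1, which is mutated in Legius syndrome and carries neurofibromin to RAS, had 273 and 342 normalized counts in control and 834 and 708 with shControl. It rose 2.50-fold (log2 1.32, SE 0.17, adjusted p = 1.05e-06). SPRED2, its close relative, rose less, from 208 and 209 to 341 and 258 (1.43-fold, SE 0.15 on the log2 scale, adjusted p = 0.0101), and its 2 shControl libraries differed by 0.40 on the log2 scale. That call was lost without either control library (adjusted p = 0.0729 and 0.0671) and without shControl replicate 1 (0.292). SPRED3, the least studied SPRED, had 14.8 to 19.5 in control and 20.03 to 28.4 with shControl. These did not overlap, but the change did not pass (log2 0.49, 95% interval −0.35 to 1.33, adjusted p = 0.414).

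ETS1 had 177 and 186 normalized counts in control and 397 and 360 with shControl, a 2.08-fold rise (log2 1.06, SE 0.15, adjusted p = 2.03e-06). ETV5 rose 1.75-fold, from 93.9 and 81.0 to 154 and 153 (log2 0.81, SE 0.17, adjusted p = 0.000766). ETV4 had 13.3 and 8.71 in control and 23.6 and 15.6 with shControl, and its interval of −0.08 to 1.73 included both no change and a change as large as that of SPRY4 (adjusted p = 0.178). PHLDA1 rose 1.56-fold, from 602 and 662 to 1043 and 936 (log2 0.65, SE 0.13, adjusted p = 0.000523). Scaling by library size alone, which moved the median of all genes to −0.53, ended the calls of SPRED2 (log2 0.02), ETV5 (0.31) and PHLDA1 (0.15).

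ETV4 counts need a further caution. Of its span, chr17:41605211-41623800, 91.2% also lies in DHX8, an RNA helicase gene on the opposite strand with 70 to 99 raw counts per library, where ETV4 had 10 to 28. Whether the counts were separated by strand is not settled. Pairs of a gene (mean count 100 or more) nested in another of the opposite strand were examined. In 60 of 61, the outer gene had at least the count of the nested gene throughout the 8 libraries. Counts of both strands together would give this, but an outer gene is also the longer one and may exceed the nested gene anyway. Reads of ETV4 and DHX8 therefore cannot be taken as told apart. DHX8 did not pass in any of the 6 comparisons, with log2 fold changes from −0.23 to 0.33. Other rows inside members were small: SPRY4-IT1, within SPRY4 on the same strand, had 4 to 28 counts, and MIR6090 and LOC101929517, within ETS1, had 0 or 1.

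**Figure D2:**
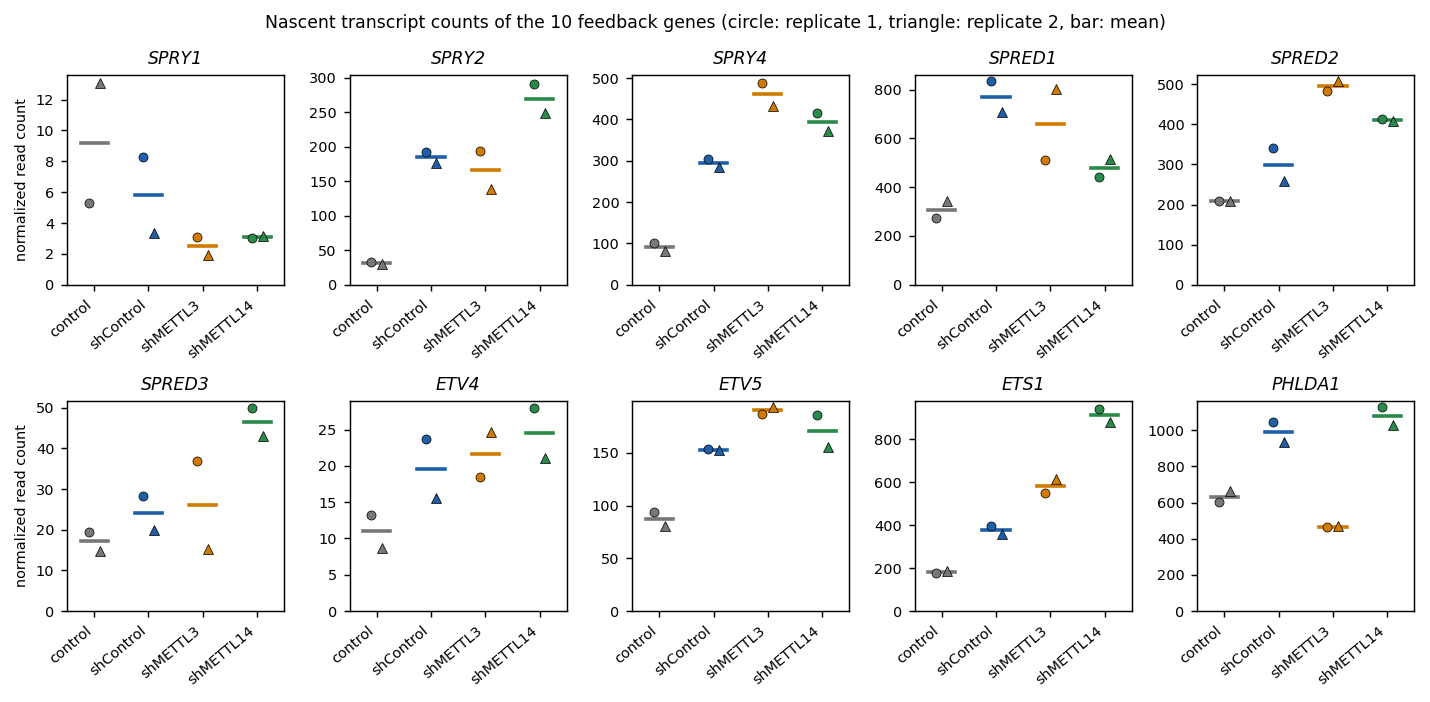
Normalized read count of each member (vertical axes start at 0 and differ between panels) in control, shControl, shMETTL3 and shMETTL14 cells. Circles are replicate 1, triangles replicate 2 and bars means; ETS1 averages 181 in control, 378 with shControl, 584 with shMETTL3 and 912 with shMETTL14, and PHLDA1 is lowest with shMETTL3 (467).

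The second comparison asked what METTL3 knockdown did in senescent cells. With shMETTL3, SPRY4, SPRED2 and ETS1 were higher than with shControl and PHLDA1 was lower, so 3 of 9 tested members were called higher and 1 lower, beside 12.2% and 11.2% of all tested genes. The median over the 9 members was 0.15 and over all genes −0.03. None of the 7 genes that rose in senescence other than PHLDA1 was called lower.

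SPRY4 had 488 and 433 normalized counts with shMETTL3, above 304 and 285 with shControl, a 1.56-fold rise (log2 0.65, SE 0.14, adjusted p = 0.00115). SPRED2 had 483 and 509, above 341 and 258, a 1.66-fold rise (log2 0.73, SE 0.14, adjusted p = 0.00041). ETS1 had 551 and 617, above 397 and 360, a 1.54-fold rise (log2 0.63, SE 0.14, adjusted p = 0.00119). The groups did not overlap for any of these genes. The calls of SPRED2 and ETS1 were lost without shControl replicate 2 (adjusted p = 0.0552 and 0.0593).

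PHLDA1 went the other way, to 464 and 470 from 1043 and 936, less than either control library (602 and 662). The fold was 0.47 (log2 −1.08, SE 0.14, adjusted p = 1.32e-06). Under library size alone, which moved the median of all genes to 0.58 in this comparison, PHLDA1 was still lower (log2 −0.46, adjusted p = 0.0189) and SPRY4 (1.26), SPRED2 (1.35) and ETS1 (1.25) were higher by more. Against control cells the fall was smaller (log2 −0.44, SE 0.14, adjusted p = 0.0115) and was lost without control replicate 2 (adjusted p = 0.134) and under library size alone (0.132). Both shMETTL3 libraries gave nearly the same PHLDA1 value, 0.02 apart on the log2 scale.

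SPRY2 (194 and 139 with shMETTL3) overlapped its shControl libraries, with a log2 fold change of −0.16 and a 95% interval of −0.51 to 0.20. SPRED1 (510 and 804) also overlapped, and its 2 shMETTL3 libraries differed by 0.66 on the log2 scale. Its log2 fold change of −0.23 became −0.62 (adjusted p = 0.00593) without shMETTL3 replicate 2 and 0.05 without replicate 1, so that a single library decides whether SPRED1 fell. SPRED3 (36.9 and 15.2) differed by 1.25 between its shMETTL3 libraries, the widest gap of any tested member in any group, and gave 0.10 with an interval of −0.70 to 0.90. ETV5 (187 and 194) lay above both shControl libraries, but its log2 fold change of 0.31 did not pass (interval −0.02 to 0.64, adjusted p = 0.165). ETV4 gave 0.15 (interval −0.68 to 0.97).

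The third comparison asked the same of METTL14 knockdown. With shMETTL14, SPRY2, SPRY4, SPRED2 and ETS1 were higher than with shControl and SPRED1 was lower, which makes 4 of 9 tested members called higher and 1 lower, beside 9.15% and 12% of all tested genes. The median over the 9 members was 0.42 and over all genes −1e-04. DESeq2 called 1 member higher, ETS1, and 1 lower, SPRED1.

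ETS1 had 941.5 and 881 normalized counts with shMETTL14 against 397 and 360 with shControl, a 2.41-fold rise (log2 1.27, SE 0.14, adjusted p = 8.2e-08). Both libraries lay above every library of the other groups. SPRY2 had 292 and 249 against 193 and 177 (1.46-fold, adjusted p = 0.0171), SPRY4 had 416 and 372 against 304 and 285 (1.34-fold, adjusted p = 0.0332), and SPRED2 had 414 and 409 against 341 and 258 (1.38-fold, adjusted p = 0.0229). The groups did not overlap for these genes. Each of these 3 calls was lost under DESeq2 (adjusted p = 0.134, 0.144 and 0.1). SPRY2 and SPRY4 were also lost without shControl replicate 1 (0.0774 and 0.117), replicate 2 (0.182 and 0.237) or shMETTL14 replicate 1 (0.25 and 0.286). SPRED2 was lost without shControl replicate 2 (0.392), shMETTL14 replicate 1 (0.125) or shMETTL14 replicate 2 (0.0603).

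SPRED1 fell to 440 and 517 normalized counts from 834 and 708, a fold of 0.62 (log2 −0.69, SE 0.17, adjusted p = 0.00437), and it was above control cells (log2 0.64, adjusted p = 0.00466), though not without control replicate 1 (0.104). Its fall was lost without shControl replicate 1 (adjusted p = 0.0947) or shMETTL14 replicate 1 (0.0618), and under library size alone (0.152). SPRED3 had 49.97 and 43.2, above both shControl libraries (28.4 and 20.03), and its log2 fold change of 0.95 just missed the threshold (interval 0.21 to 1.69, adjusted p = 0.0603). It passed in some settings, such as no filter on low counts (adjusted p = 0.0389) and a fit of only the groups compared (0.0162), but not by DESeq2. Over all alternatives its log2 fold change ran from 0.71 to 1.30. PHLDA1 (1129 and 1027) gave 0.12 (interval −0.15 to 0.40), ETV5 (186 and 156) 0.16 (interval −0.17 to 0.49) and ETV4 (28.0 and 21.1) 0.33 (interval −0.49 to 1.14).

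**Figure D3:**
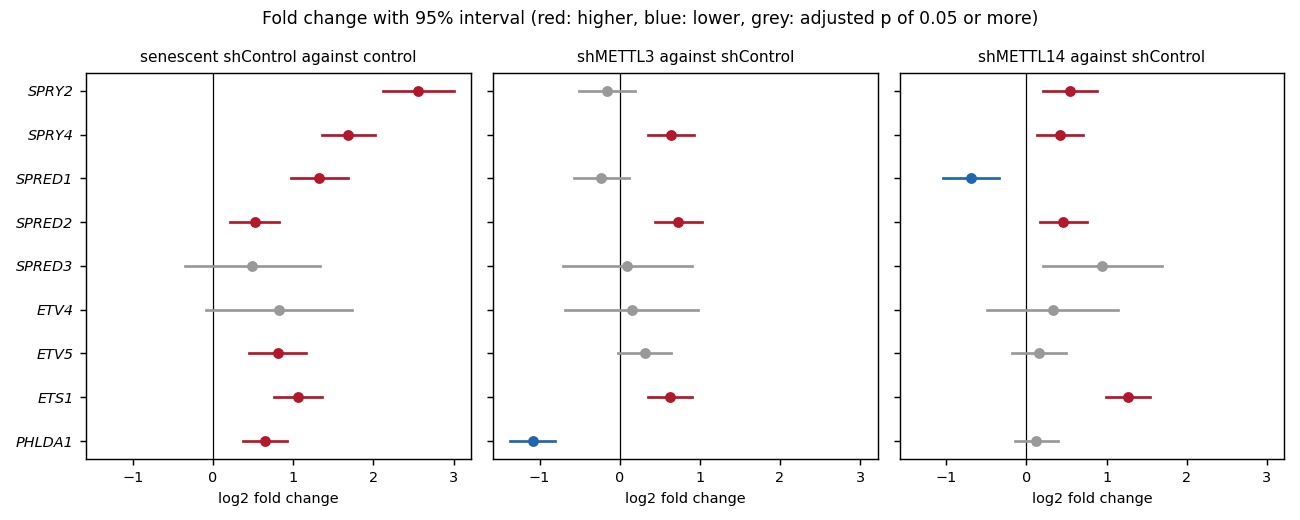
Log2 fold change (horizontal axis) of the 9 tested members in senescence and after each knockdown. Points are edgeR estimates and lines 95% intervals; red and blue mark genes higher and lower at an adjusted p below 0.05. SPRY2 is highest in senescence (2.56), PHLDA1 is the only blue point with shMETTL3 (−1.08) and SPRED1 the only blue point with shMETTL14 (−0.69).

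Knockdown cells were also set against control cells. With shMETTL3, 6 of 9 tested members were higher than in control and PHLDA1 was lower, beside 20.1% and 20.1% of all tested genes. SPRED3 and ETV4 did not pass. With shMETTL14 all 9 tested members were higher, beside 19.7% of all tested genes, and 0 were lower, beside 20.5%, with 9 higher and 0 lower also at an unadjusted p below 0.05 and 8 higher and 0 lower by DESeq2, which lost ETV4 (adjusted p = 0.179). ETV4 was also lost without control replicate 2 (log2 0.88) or shMETTL14 replicate 1 (log2 0.95) and under library size alone (adjusted p = 0.0526). As 91.2% of the ETV4 span lies in DHX8, the reads counted for ETV4 cannot be taken as its own. SPRY2 was 5.30-fold above control with shMETTL3 and 8.64-fold with shMETTL14, SPRY4 5.03-fold and 4.31-fold, and ETS1 3.22-fold and 5.03-fold. Comparisons with shared control libraries are given side by side and are not independent of each other.

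The 2 knockdowns were compared directly. SPRY2, ETS1 and PHLDA1 were higher with shMETTL14 than with shMETTL3 and SPRED1 was lower, so 3 of 9 tested members were called higher and 1 lower, beside 16.5% and 18.7% of all tested genes. PHLDA1 differed most, 2.31-fold (log2 1.21, SE 0.14, adjusted p = 1.25e-07). SPRY2 differed 1.63-fold (log2 0.70, adjusted p = 0.00139) and ETS1 1.56-fold (log2 0.64, adjusted p = 0.000366). The SPRY2 difference was just lost without shMETTL14 replicate 1 (adjusted p = 0.0547), and under library size alone those of SPRY2 (0.0652) and ETS1 (0.0751) were. The SPRED1 difference was small (log2 −0.46, adjusted p = 0.0364), was −0.08 without shMETTL3 replicate 2, and missed the threshold by DESeq2 (0.088) and in a fit of only the groups compared (0.111). SPRY4 (log2 −0.23, interval −0.50 to 0.05) and SPRED2 (−0.27, interval −0.56 to 0.01) did not pass, and neither did ETV4 and ETV5. SPRED3 just missed the threshold (0.85, adjusted p = 0.057). It passed in some settings, such as upper quartile normalization (adjusted p = 0.0473), and its log2 fold change ran from 0.35 to 1.62 over all alternatives.

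SPRY4 lies beside SPRY4-AS1, a long noncoding RNA gene that runs the other way from a start 237 bases from that of SPRY4, chr5:141689992-141704620. It was picked out after its values had been seen. SPRY4-AS1 had 140 and 128 normalized counts in control, 291 and 288 in shControl cells, 458 and 453 after shMETTL3, and 166 and 221 after shMETTL14. It rose with SPRY4 in senescence (log2 1.11, SE 0.15, adjusted p = 2.56e-06) and rose with it again with shMETTL3 (0.65, SE 0.14, adjusted p = 0.00115). With shMETTL14 it fell (−0.58, interval −0.89 to −0.27, adjusted p = 0.00614) where SPRY4 was higher (0.42, interval 0.13 to 0.71). The difference between the genes was not tested itself, and their intervals did not overlap. The fall was lost without shControl replicate 1 (adjusted p = 0.0581), shControl replicate 2 (0.0541) or shMETTL14 replicate 1 (0.16), and under library size alone (0.358), but between shMETTL14 and shMETTL3 SPRY4-AS1 differed by −1.24 (SE 0.15, adjusted p = 2.41e-07). GENCODE lists SPRY4 up to chr5:141706020, inside the counted span of SPRY4-AS1, so that reads from such a longer SPRY4 transcript would be counted for SPRY4-AS1.

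**Figure D4:**
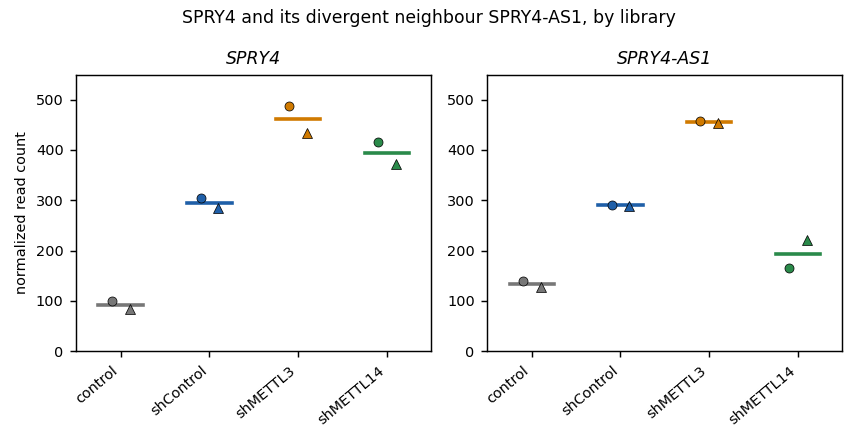
Normalized read count of SPRY4 and SPRY4-AS1 (same vertical scale, from 0) in the 4 groups. Circles are replicate 1, triangles replicate 2 and bars means; with shMETTL14 SPRY4 averages 394 and SPRY4-AS1 194, while with shMETTL3 they average 461 and 455.

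Other genes of the same pathway were taken from lists chosen with earlier results of these data known. Of 12 other genes commonly used as ERK output, 8 were higher and 0 lower in senescent shControl cells (13.3% and 13.3% of all tested genes), with a median log2 fold change of 1.34. At an unadjusted p below 0.05 edgeR gave 8 higher and 1 lower, and DESeq2 called 8 higher and 0 lower. DUSP6, the ERK phosphatase of the cytoplasm, had 55 and 57 raw counts in control and 416 and 435 with shControl (log2 3.31, adjusted p = 3.99e-15), and the nuclear ERK phosphatase DUSP5 had 74 and 84 against 314 and 305 (2.35, adjusted p = 1.93e-11). DUSP4, another nuclear phosphatase, had 2 and 1 against 57 and 40.

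After the knockdowns 1 of the 12 ERK output genes was higher and 4 were lower with shMETTL3 (12.2% and 11.2% of all tested genes), where an unadjusted p below 0.05 gave 1 and 6 and DESeq2 1 and 3. With shMETTL14 4 were higher and 2 lower (9.15% and 12% of all tested genes), the same counts as by DESeq2 and by unadjusted p. DUSP6 fell with both (log2 −0.61, adjusted p = 0.00108 and −1.40, adjusted p = 2.15e-08), although the first value was 0.0041 under library size alone. EPHA4, an ephrin receptor, rose with shMETTL3 (2.13, adjusted p = 2.46e-09), and FOSL1, an AP-1 subunit, rose with shMETTL14 (1.69, adjusted p = 5.49e-08). DUSP5 rose with shMETTL14 (0.72, adjusted p = 0.000477), as SPRY2 did. DUSP6 and the members SPRY2 and SPRY4 thus had different signs with shMETTL14, where SPRY2 and SPRY4 were higher.

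Of 22 genes of the cascade from RAS to ERK, 5 were higher and 3 lower in senescence, 5 higher and 8 lower with shMETTL3, and 2 higher and 2 lower with shMETTL14, with medians of −0.06, 0.05 and 0.01. The shares over all tested genes were 13.3% and 13.3%, 12.2% and 11.2%, and 9.15% and 12%, and DESeq2 called 5 and 3, 4 and 4, and 1 and 1 of the 22. HRAS rose in senescence (log2 0.81, adjusted p = 6.56e-05, or 0.137 under library size alone), was lower with shMETTL3 than with shControl (−0.70, adjusted p = 0.000535, or 0.69 under library size alone), did not pass with shMETTL14 (0.23, adjusted p = 0.242) and was higher with shMETTL14 than with shMETTL3 (0.94, adjusted p = 7.85e-06). Reads of the introduced H-RAS and of the cell's own HRAS cannot be told apart, and the part of HRAS in the members' differences between the knockdown groups was not tested. RASA1, a GTPase-activating protein that turns RAS off, rose in senescence (0.94, adjusted p = 3.05e-05) and fell with shMETTL14 (−1.03, adjusted p = 1.84e-05), the same signs as SPRED1. NRAS fell in senescence (−0.93, adjusted p = 0.00183, or 0.0581 without shControl replicate 2) and rose with shMETTL3 (1.03, adjusted p = 0.000938).

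Of 13 other ETS factors tested of 14 listed, 2 were higher and 3 lower in senescence, 4 higher and 1 lower with shMETTL3, and 3 higher and 2 lower with shMETTL14. The shares over all tested genes were 13.3% and 13.3%, 12.2% and 11.2%, and 9.15% and 12%, and DESeq2 called 1 and 2, 3 and 0, and 2 and 1 of these factors. ELK3 rose in senescence (log2 1.01, adjusted p = 3.65e-06). FLI1, which lies close to ETS1 on chromosome 11, fell in senescence (−1.16, adjusted p = 0.00112) where ETS1 rose, and rose with shMETTL3 (1.57, adjusted p = 3.94e-05) and shMETTL14 (1.22, adjusted p = 0.00115) as ETS1 did. ETV1, the third PEA3-group factor beside ETV4 and ETV5, rose with shMETTL3 (1.14, adjusted p = 7.01e-05) and fell with shMETTL14 (−1.003, adjusted p = 0.00241, or 0.0755 without shMETTL14 replicate 1).

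Beside the same shares over all tested genes (13.3% and 13.3%, 12.2% and 11.2%, 9.15% and 12%), 1 of 3 relatives of the members was higher in senescence, 1 lower with shMETTL3 and 1 higher with shMETTL14. SPRY3 passed in none of these 3 comparisons. PHLDA2 followed PHLDA1, higher in senescence (log2 0.85, adjusted p = 0.0178) and lower with shMETTL3 (−1.05, adjusted p = 0.00678), although both calls were lost in DESeq2, and PHLDA3 rose with shMETTL14 (1.22, adjusted p = 0.00014). Of 6 growth factor receptors tested of 9 listed, 0 were higher and 3 lower in senescence, led by IGF1R (−1.48, adjusted p = 3.42e-09), 0 passed with shMETTL3, and 0 were higher and 3 lower with shMETTL14, led by PDGFRA (−1.32, adjusted p = 2.07e-06), beside those same shares. DESeq2 called 1 receptor higher and 3 lower in senescence, 0 with shMETTL3, and 0 higher and 2 lower with shMETTL14, and at an unadjusted p below 0.05 edgeR gave 1 and 3, 1 and 1, and 0 and 4.

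For 8 of the tested members the gene with the most similar course over the 8 libraries was found among 3855 genes (mean count 100 or more), as the smallest root mean square difference between centred log2 normalized counts (CPM). The nearest to SPRY2 was DUSP5, at 0.13, where the median gene lay at 1.19. The nearest to ETS1 was NFKB1, a subunit of NF-kappa B, at 0.15 (median gene 0.88). USP25 was nearest to SPRED1 (0.10), GRB10, an adaptor of the insulin receptor, to SPRED2 (0.10), and CPEB4 to ETV5 (0.09). SNHG4, nearest to SPRY4 (0.15), lies with 100% of its span in MATR3, so that reads of the pair cannot be told apart. UNC45B (0.17) and RNMT (0.14) were nearest to SPRED3 and ETV4, both of which had few counts. These likenesses are descriptions over libraries that share conditions.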

How the data were processed

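IMR90 cells were profiled by fastGRO-seq in 4 groups of 2 libraries. The authors aligned reads to hg19 (STAR is named in the submitters' processing notes) and ran HOMER on the full span of each gene, exons and introns together. The deposited values are raw counts per gene of each library, without normalization. The file header names a strand option. Each library held 14897360 to 20306299 counts.

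TMM normalization and 1 quasi-likelihood fit were applied to all 8 libraries with edgeR 4.0.16 in R 4.3.3, after filterByExpr with a minimum count of 10, for 6 contrasts. The threshold was an adjusted p of 0.05 (Benjamini-Hochberg, over all 12844 genes tested). The filter left out SPRY1, which had 2 to 15 counts. Normalized counts are counts scaled to the mean effective library size. The test was checked on simulated counts. Alternatives were DESeq2 1.42.0, other normalizations, filters and thresholds, smaller fits, replicate number as a block, removal of ribosomal RNA rows and each library left out.

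Members and lists were chosen with earlier results of these data known. The genes named are the members, METTL3, METTL14, genes overlapping a member, the gene with the nearest course to each member, and up to 4 called genes of each list, beside DUSP5, which is the gene nearest to SPRY2. SPRY4-AS1 and HRAS, the gene of the introduced RAS, and the markers named were added after their values were seen. Upstream sequences are from GRCh37, with exons from GENCODE. Without the authors' Drosophila spike-in, which was not used, fold changes are relative to other genes of the library. The nearest gene of 1 member and 1 upstream sequence are not reported here. Plots were drawn with matplotlib 3.10.9.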

Additional observations from a re-analysis of the deposited data

Results flagged for a closer look

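For 4 of the 9 tested members, 3 higher and 1 lower beside 16.5% and 18.7% of all tested genes, the effect of METTL14 knockdown differed from that of METTL3 knockdown by the direct test between the knockdown groups, with edgeR and adjustment over all genes tested. PHLDA1 differed by 1.21 on the log2 scale (adjusted p = 1.25e-07), being lower with shMETTL3 than with shControl and close to shControl with shMETTL14. SPRY2 differed by 0.70 (adjusted p = 0.00139) and ETS1 by 0.64 (adjusted p = 0.000366), both higher with shMETTL14. SPRED1 differed by −0.46 (adjusted p = 0.0364), lower with shMETTL14, and lost its call in many settings. It was −0.08 (adjusted p = 0.777) without shMETTL3 replicate 2, −0.37 (0.22) without shMETTL14 replicate 1, −0.25 (0.227) under library size without ribosomal RNA rows and −0.41 (0.0583) under upper quartile normalization. Leaving out control replicate 1 (0.05) or either shControl library (0.058 and 0.0593) also ended the call. No explanation was tested. No group held enough libraries for a test of single libraries that stand apart.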

How the results depend on the processing

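The 36 calls of members over the 6 comparisons did not change sign under any alternative run. They stayed past the threshold in 373 fits and lost it in 23 over the alternatives that kept the groups whole, and with 1 library left out at a time they stayed in 262 and lost it in 26. Members not called became called in 16 and 6 such fits, among them, under library size alone, ETV5 with shMETTL3 (0.93, adjusted p = 0.000129), PHLDA1 with shMETTL14 (0.48, adjusted p = 0.0193), and SPRY4 (−0.48, adjusted p = 0.0254) and SPRED2 (−0.54, adjusted p = 0.011) between the knockdowns. Library size alone, without TMM, moved the median of all genes to −0.53 in senescence, 0.58 with shMETTL3 and 0.35 with shMETTL14 against shControl. The number of members called in senescence was then 4 in place of 7, with SPRED2 (0.02), ETV5 (0.31) and PHLDA1 (0.15) lost. It was 7 again when library size was taken without ribosomal RNA rows, an alternative chosen after seeing the data. Over all genes the split of calls moved with these scalings. In senescence 1711 genes were higher and 1702 lower, against 752 and 5007 under library size alone and 1441 and 2159 without ribosomal RNA rows in it. With shMETTL3 against shControl the splits were 1573 and 1434, 5285 and 353, and 1186 and 1861, and with shMETTL14 1175 and 1545, 3163 and 710, and 1620 and 1247. Between the knockdowns they were 2118 and 2399, 1177 and 3486, and 3190 and 1654. Against control, shMETTL3 gave 2579 and 2583, or 2899 and 2031 under library size alone and 1893 and 3644 without ribosomal RNA rows, and shMETTL14 gave 2531 and 2636, or 1826 and 3078 and 2519 and 2636. With shMETTL14 against shControl 2 members in place of 5 were called by DESeq2 and 2 at an adjusted p below 0.01. All genes called there went from 1175 higher and 1545 lower to 492 and 874 by DESeq2 and 626 and 945 at the stricter threshold.

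With 1 library left out, the number of members called ranged from 6 to 7 in senescence, 2 to 5 with shMETTL3 and 1 to 6 with shMETTL14 against shControl, 6 to 8 and 8 to 9 against control, and 2 to 5 between the knockdowns. The lowest value with shMETTL3 came without shControl replicate 2 (2), and those with shMETTL14 without shMETTL14 replicate 1 (1) or either shControl library (2). Over all genes the calls moved too. They were 769 higher and 723 lower with shMETTL3 without shControl replicate 2, and with shMETTL14 486 and 784 without shMETTL14 replicate 1, 554 and 936 without shControl replicate 1 and 509 and 873 without shControl replicate 2, while leaving out a shMETTL3 library gave 1640 or more higher and 1930 lower.

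Fold changes that turned their sign belonged to members that had not been called, except for DUSP6 with shMETTL3 (0.0041 under library size alone). Under library size alone they were SPRED3 in senescence (−0.006), SPRY2 (0.45) and SPRED1 (0.41) with shMETTL3, and ETV4 between the knockdowns (−0.081). Under library size without ribosomal RNA rows they were SPRED3 with shMETTL3 (−0.0044) and ETV5 between the knockdowns (0.05). Over the fits with 1 library left out, the values with shMETTL3 against shControl ran from −0.43 to 0.050 for SPRY2, −0.62 to 0.047 for SPRED1, −0.68 to 0.59 for SPRED3 and −0.14 to 0.46 for ETV4. In the same way SPRED3 with shMETTL3 against control ran from −0.18 to 1.10, and ETV4 between the knockdowns from −0.059 to 0.43. The cause was not tested.

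Deviations of same-numbered libraries correlated by −0.04 to 0.10 between groups. Counting noise lowers such correlations, so they cannot show whether same-numbered libraries shared a culture or day. With the replicate block the members called were 7, 4, 6, 7, 9 and 5 in the 6 comparisons, where the fits without it gave 7, 4, 5, 7, 9 and 4, SPRED3 being added with shMETTL14 against shControl (adjusted p = 0.0444) and against shMETTL3 (0.0364). ETV4 and SPRED3 had 10 to 50 counts per library, and their intervals were the widest of the tested members.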
